A study of Mus musculus with 6 samples.

Results

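Intestinal iron absorption and storage was examined through 7 genes, Slc11a2, Cybrd1, Slc40a1, Heph, Fth1, Ftl1 and Tfrc, which were chosen by symbol from the 22700 genes of the deposited expression table. All 7 were found. The study compared the middle small intestinal mucosa of 3 alk-SMase KO mice (libraries K79S, K82S and K86S) with that of 3 WT mice (W83S, W89S and W90S), with 1 RNA-seq library per mouse. All mice were C57BL/6 on standard pellets, and the KO mice lacked exon 2 of Enpp7, the gene of alkaline sphingomyelinase, which was deleted by a Cre recombinase whose driver is not given in the sources used here. Age and sex of the mice are not given in the sources used here. The authors deposited expression as FPKM, which scales the reads of a gene to its length and to the mapped reads of the library. The study lists the mapped reads of each library, which were not used here. FPKM gives no read count for a single value, so no counting interval is given, and precision was judged by how far the mice of 1 genotype differed.

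Iron enters the small intestine mainly through enterocytes. At the brush border Cybrd1 (duodenal cytochrome b) reduces ferric iron, and Slc11a2 (DMT1) carries ferrous iron into the cell. Ferritin, a shell of heavy (Fth1) and light (Ftl1) chains, stores it. Slc40a1 (ferroportin) exports iron at the basolateral side, Heph (hephaestin) oxidises it there for transferrin, and Tfrc (transferrin receptor) takes transferrin-bound iron up, above all in dividing cells. Iron-responsive elements (IREs) before the coding sequence let the iron regulatory proteins block translation of ferritin and ferroportin mRNA in iron shortage, whereas elements behind it protect the mRNA of Tfrc. The classical site of this pathway is the proximal duodenum.

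The IREs are shown because they divide the 7 mRNAs into groups that are regulated at different steps, of which FPKM reads the mRNA level only. The untranslated regions of the GENCODE M21 coding transcripts (GRCm38) were searched on the sense strand for C, 5 bases, CAGTGN and 5 bases, where at least 4 of the 5 base pairs of the stem could form. Such letters were found in the 5' UTR of 205 of 20580 genes (0.996%) and in the 3' UTR of 872 of 20962 genes (4.16%), and in 5 of the 7 genes. Capitals mark the 6 bases of the loop, and each site is shown with 6 bases on either side of the searched letters.
Fth1, 5' UTR, chr19:9982732-9982760, plus strand: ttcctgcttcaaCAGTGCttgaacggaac
Ftl1, 5' UTR, chr7:45459779-45459807, minus strand: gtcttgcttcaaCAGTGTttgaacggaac
Slc40a1, 5' UTR, chr1:45925465-45925493, minus strand: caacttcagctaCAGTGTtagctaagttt
Slc11a2, 3' UTR, chr15:100395153-100395181, minus strand: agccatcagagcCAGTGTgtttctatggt
Tfrc, 3' UTR, chr16:32631219-32631247, plus strand: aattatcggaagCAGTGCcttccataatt
Tfrc, 3' UTR, chr16:32631598-32631626, plus strand: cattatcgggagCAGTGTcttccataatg
Tfrc, 3' UTR, chr16:32631663-32631691, plus strand: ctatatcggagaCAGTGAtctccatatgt
Tfrc, 3' UTR, chr16:32631710-32631738, plus strand: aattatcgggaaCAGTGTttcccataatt
These letters were not found in the annotated UTRs of Cybrd1 and Heph. The site of Slc11a2 had 4 of 5 pairs and lay in 1 of the 3 coding transcripts with a 3' UTR, and the Tfrc sites lay in 1 of 2. Of the coding transcripts with a 5' UTR, 4 of 5 for Fth1, 1 of 2 for Ftl1 and 1 of 4 for Slc40a1 held the site. For each of these genes FPKM thus joins annotated transcripts with and without it.

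The gene names used here are restored ones. In the deposited table the identifiers stand beside the values of other genes, and each was returned to its row by the rank of its value, with fixed offsets. The offset was checked near each of the 7 genes, over 100 identifiers on either side (fewer at the top of the table). Whether values had at most 6 decimals matched whether the gene had 1 annotated transcript for 86.2% to 96.5% of identifiers, against 57.7% to 66.2% for the next best of the offsets up to 4 ranks away. The test is weak for Fth1 itself, since the highest values of the table are printed with few decimals in any case. Only genes of 0.954 FPKM or more in W83S could be placed, 12402 in all. Pathway and marker genes with little expression in that WT library are therefore missing from every count below. Of the 13089 rows tested below, 12098 were placed. Shares and medians over all rows thus include rows that this floor did not select, unlike those of the listed genes.

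The libraries differed in markers of other tissues and of gut regions. All 10 enterocyte markers were expressed in every library, the lowest value being 76.3 FPKM of Lct in K82S. W83S stood apart in gastric and pancreatic acinar transcripts. The 7 placed gastric markers, led by Tff1, Pgc and Gkn1, summed to 41019 FPKM in it against 0 to 5.72 FPKM elsewhere. The 5 placed acinar markers summed to 12537 FPKM in it against 13.2 to 85.8 FPKM, and 6 listed ones were not placed. Clps (10194 FPKM) and Pla2g1b (2309 FPKM) carried this acinar sum. Amy2a5, Cela1 and Ctrb1 were also highest in W83S, but only at 20.1, 12.4 and 2.11 FPKM. K82S and W89S had the lowest sums of the 8 markers of the proximal small intestine (2246 and 3250.5 FPKM, against 4174 to 9412 FPKM). They also had the highest sums of the 5 placed distal markers (1717 and 950.1 FPKM, against 359 to 749 FPKM). Slc51a (885 and 450 FPKM) and Slc51b (715 and 404 FPKM) carried these distal sums, and Nr1h4 was also highest in K82S and W89S. Cubn went the other way, with K79S (63.6 FPKM) and K86S above K82S (29.8 FPKM) and W89S (29.3 FPKM). Osr2 was highest in W89S (35.3 FPKM), but K82S (25.5 FPKM) lay below K79S (35.2 FPKM). Enpp7 stood at 605 FPKM in K79S, 129 in K82S and 669.7 in K86S, and at 406 in W83S, 667 in W89S and 495 in W90S, values that cannot show the loss of 1 exon. In bulk tissue, fewer cells of a type and less RNA per cell cannot be told apart.

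None of the iron genes passed the test. Over the 13089 rows with FPKM of 1 or more in at least 2 libraries, limma was run on log2(FPKM + 1), and a row was called when its adjusted p was under 0.05 and its change exceeded 1.5-fold either way. In this comparison 1 row was called (0.00764%). Of the 7 genes 6 entered it, 0 were called and 0 had an unadjusted p under 0.05, while Cybrd1 stayed below the filter. Their median log2 fold change, KO against WT, was -0.05, beside -0.06 for all rows tested. Fth1 and Tfrc had the largest log2 fold changes of the tested 6, both with a lower mean in KO, and Heph alone had groups that did not overlap, as had 17.2% of all rows tested. With 3 mice a side, the smallest p of an exact two-sided permutation test is 0.1.

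**Figure D1:**
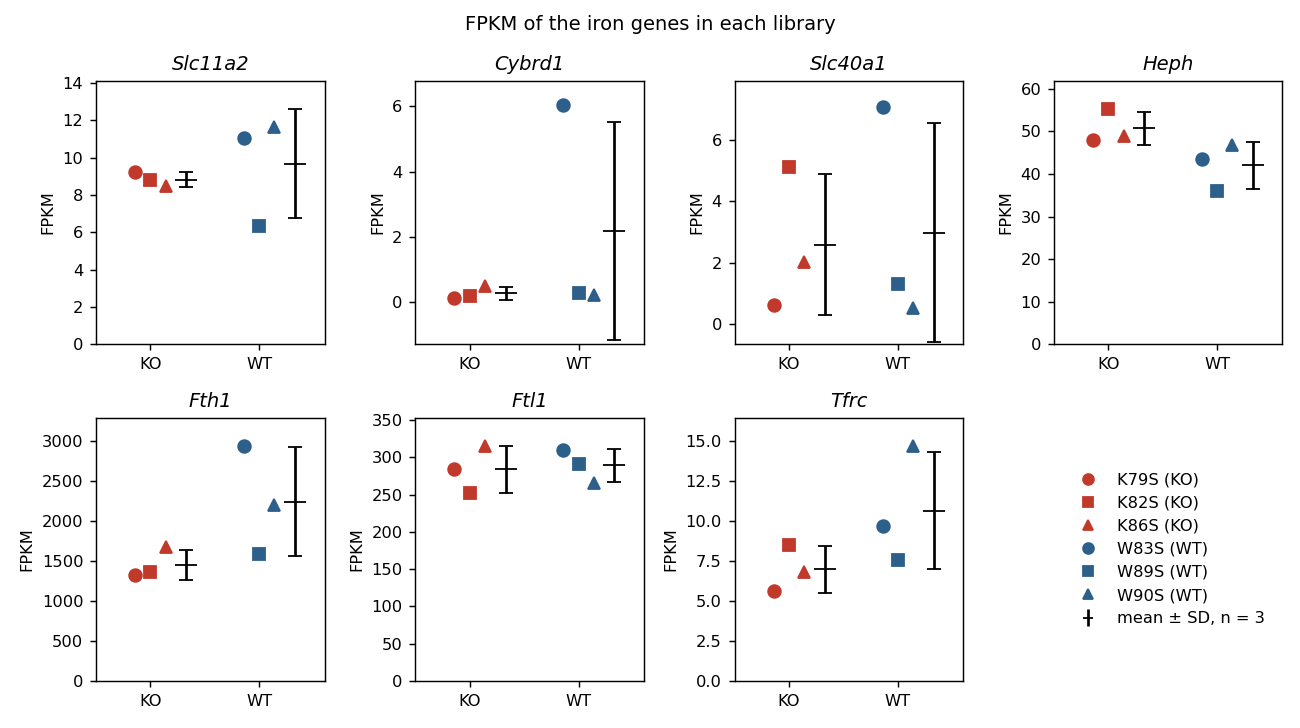
FPKM (linear y axis) of the 7 iron genes in each of 3 KO (red) and 3 WT (blue) libraries, 1 panel per gene, with the mean and SD in black. The Heph values of KO (47.9 to 55.2 FPKM) lie above those of WT (35.9 to 46.8 FPKM), and Cybrd1 exceeds 1 FPKM in W83S only.

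The levels of the 7 genes followed one order. Averaged over the 6 libraries, FPKM was 1849.5 ± 621 for Fth1, 286 ± 24.3 for Ftl1, 46.4 ± 6.41 for Heph, 9.24 ± 1.92 for Slc11a2, 8.82 ± 3.21 for Tfrc, 2.78 ± 2.70 for Slc40a1 and 1.23 ± 2.36 for Cybrd1 (SD, n = 6). Every step of this order held in 6 of 6 libraries, except that Slc11a2 exceeded Tfrc in 4 of 6, so these neighbours did not differ beyond their spread. Fth1 ranked between 23 and 47 among all rows of a library, and Cybrd1 between 6132 and 17549.

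Cybrd1, the ferric reductase, was close to absent outside 1 library. It stood at 0.122 FPKM in K79S, 0.208 in K82S and 0.503 in K86S, and at 6.05 in W83S, 0.281 in W89S and 0.220 in W90S. Only W83S reached 1 FPKM, and the other WT libraries lay within the range of the KO libraries. A gene had to reach 0.954 FPKM in W83S to be placed, so Cybrd1 was placed only through its value in W83S. The gene lies on chromosome 2 from 71117923 to 71142926 (ENSMUSG00000027015.4) on the plus strand and has 1 annotated transcript. Its untested log2 fold change of -0.81 turned to 0.02 without W83S (exact permutation test with all libraries, p = 0.5). W83S was also the library with the gastric and acinar transcripts. It had the highest value of Pdx1, a transcription factor of pancreas, antrum and duodenum, at 5.44 FPKM against 0.0503 to 1.05 FPKM elsewhere. Pdx1 was picked out after its values were seen. Of the other proximal markers only Gata4 was also highest in W83S (47.2 FPKM). Rbp2, Slc2a2, Lct and Onecut2 were highest in K86S, and Fabp1 and Adh6a in W90S. The part of the gastric, acinar and Pdx1 transcripts in the Cybrd1 value was not tested.

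Slc11a2, the importer of ferrous iron, varied less among the KO mice than among the WT mice. It stood at 9.22 FPKM in K79S, 8.79 in K82S and 8.45 in K86S, and at 11.0 in W83S, 6.31 in W89S and 11.7 in W90S. The KO values lay between the lowest and the highest WT value. The gene lies on chromosome 15 from 100387898 to 100425072 (ENSMUSG00000023030.16) on the minus strand. Its log2 fold change was -0.08, with a 95% interval of -0.62 to 0.46 (adjusted p = 0.902 from limma).

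Slc40a1, the exporter, varied more between mice than any other tested iron gene. It stood at 0.617 FPKM in K79S, 5.11 in K82S and 2.03 in K86S, and at 7.08 in W83S, 1.31 in W89S and 0.529 in W90S, a 13.4-fold span. The highest and the lowest library were both WT. With the gene on chromosome 1 from 45908068 to 45926523 (ENSMUSG00000025993.10), minus strand, the log2 fold change was 0.02 and its 95% interval reached from -1.69 to 1.74 (adjusted p = 0.992 from limma), so a change of several-fold either way was not detectable here. It was 0.72 without W83S and -0.47 without K82S. Macrophages also export iron through ferroportin: their 6 placed markers, led by Lyz2, C1qa and C1qb, summed to 197 FPKM in K82S and 87.3 FPKM in W83S, the libraries highest in Slc40a1, against 63.0 to 242 FPKM in the others, and Adgre1, Cd163, Mrc1, Cx3cr1, Vcam1 and Timd4 were not analysed here. Lyz2 carried most of the macrophage sum in K82S (122 FPKM), W89S (184 FPKM) and W90S (123 FPKM). C1qa, C1qb, C1qc and Cd68 were highest in K82S, and Csf1r in K86S. The part of macrophages in the Slc40a1 values was not tested.

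**Figure D2:**
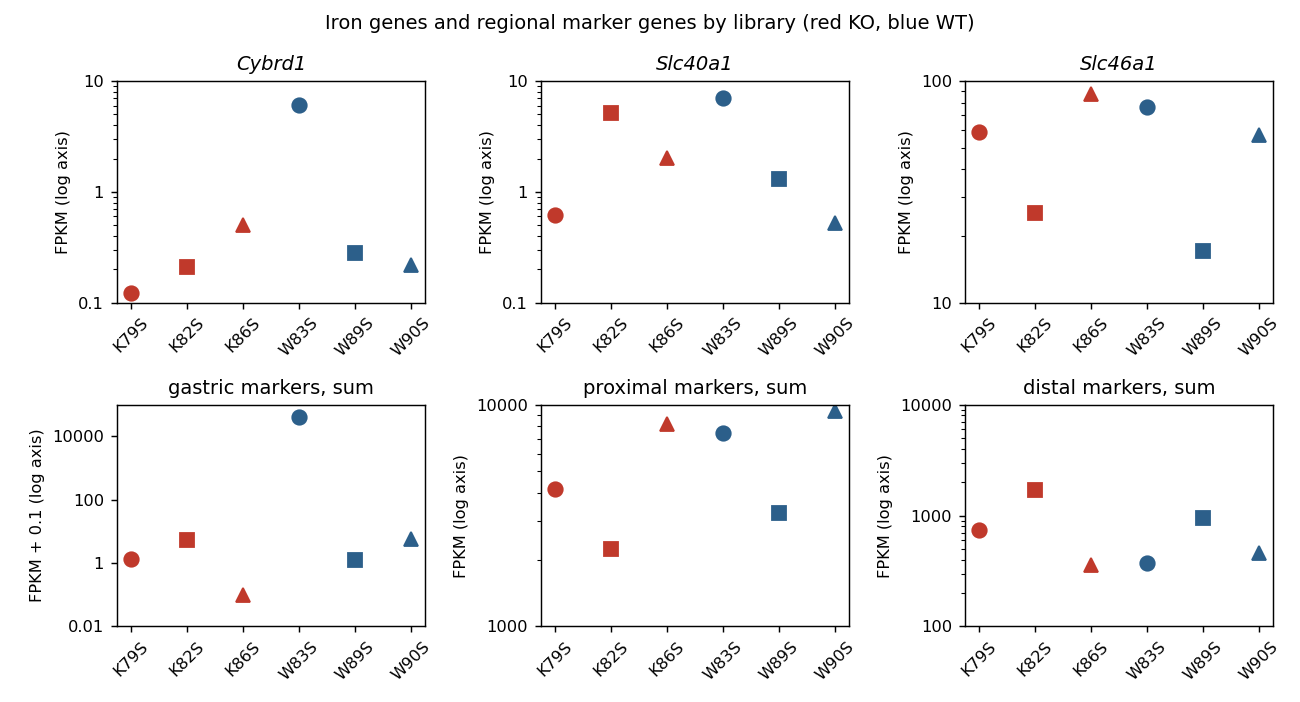
FPKM on log axes in each library for Cybrd1, Slc40a1 and Slc46a1, and summed over gastric, proximal and distal marker genes (0.1 added to the gastric sum, so that K86S at 0 appears at 0.1), with KO in red and WT in blue. The W83S library stands out in Cybrd1 (6.05 FPKM) and in the gastric sum (41019 FPKM), and K82S and W89S are lowest in the proximal sum and in Slc46a1 (25.4 and 17.2 FPKM).

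Heph, the multicopper oxidase that works with ferroportin, was the only iron gene with separate groups. It stood at 47.9 FPKM in K79S, 55.2 in K82S and 49.0 in K86S, and at 43.4 in W83S, 35.9 in W89S and 46.8 in W90S. Even the lowest KO library, K79S, exceeded the highest WT library, W90S, if narrowly. Of all rows tested 5.90% had the KO libraries above the WT libraries in this way, beside 1 of 6 iron genes. Means were 50.7 ± 3.94 FPKM for the KO mice and 42.1 ± 5.55 for the WT mice (SD, n = 3), a ratio of 1.21, and the log2 fold change was 0.27 with a 95% interval of -0.12 to 0.66 (adjusted p = 0.491 from limma, exact permutation test p = 0.1). The groups also stood apart with each library set to the same FPKM sum, with median-of-ratios scaling and with quantile normalization. The 10 enterocyte markers had a median log2 fold change of 0.21, with 7 above 0 and 0 called, and 1 of them, Anpep, also had the KO libraries above the WT libraries (log2 fold change 0.70, adjusted p = 0.393 from limma). The 5 placed distal markers all had log2 fold changes above 0, with 0 called, as had 42.3% of all rows tested. Among them Cubn also had the KO libraries above the WT libraries (log2 fold change 1.17, adjusted p = 0.393 from limma). The part of the enterocyte share or gut region in the Heph difference was not tested. Heph lies on chromosome X from 96455359 to 96574485 (ENSMUSG00000031209.14), plus strand, and shared no window of 50 bases with its paralog Hephl1, with up to 2 mismatches allowed.

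Ferritin heavy chain, Fth1, was the most abundant iron mRNA and had a lower mean in KO, a difference that did not pass the test. It stood at 1324 FPKM in K79S, 1369.7 in K82S and 1673 in K86S, and at 2942 in W83S, 1584 in W89S and 2204 in W90S. The groups overlapped only through K86S, which lay above W89S. Means were 1456 ± 189.7 FPKM for the KO mice and 2243 ± 680.2 for the WT mice (SD, n = 3), a ratio of 0.649. The log2 fold change was -0.59, with a 95% interval of -1.24 to 0.07 (adjusted p = 0.406 from limma, exact permutation test p = 0.2). W83S, the library with gastric transcripts, had the highest value, and without it the log2 fold change was -0.37, while it was -0.81 without W89S. Fth1 lies on chromosome 19 from 9980598 to 9985098 (ENSMUSG00000024661.6) on the plus strand.

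Ferritin light chain, Ftl1, hardly varied. It stood at 284 FPKM in K79S, 253 in K82S and 315 in K86S, and at 309.6 in W83S, 292 in W89S and 266 in W90S, a 1.25-fold span over all mice. KO libraries held both the highest and the lowest value. The gene lies on chromosome 7 from 45457944 to 45459884 (ENSMUSG00000050708.16) on the minus strand, and its log2 fold change was -0.03 with a 95% interval of -0.45 to 0.39 (adjusted p = 0.954 from limma), within 1.5-fold either way on this scale. The ratio of Fth1 to Ftl1, computed after the values were seen and given with no test, was 4.67 in K79S, 5.42 in K82S, 5.31 in K86S, 9.51 in W83S, 5.43 in W89S and 8.29 in W90S. W83S and W90S were high, and W89S lay next to K82S.

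Copies of the ferritin genes limit these values. Of the 50-base windows of Ftl1-ps1, 57.6% are also found in Ftl1 transcripts, and the shares were 54.3% for Ftl2-ps and 25.0% for Ftl1-ps2, so that 50-base reads of these genes could be split between them. With up to 2 mismatches the shares were 73.6%, 97.0% and 91.0%. Their rows held 118 to 143 FPKM, 105 to 123 FPKM and 31.6 to 38.8 FPKM, and each was lowest in K82S, as Ftl1 was. Ftl2-ps was the gene most like Ftl1 over the 6 libraries (Pearson r = 0.979 on the log2 scale). Fth-ps3 shares 0 windows with Fth1 exactly and 5.18% with up to 2 mismatches. Its row stood at 8.25 FPKM in K79S, 5.30 in K82S and 7.02 in K86S, and at 14.6 in W83S, 5.42 in W89S and 10.5 in W90S, highest in W83S and W90S like Fth1.

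**Figure D3:**
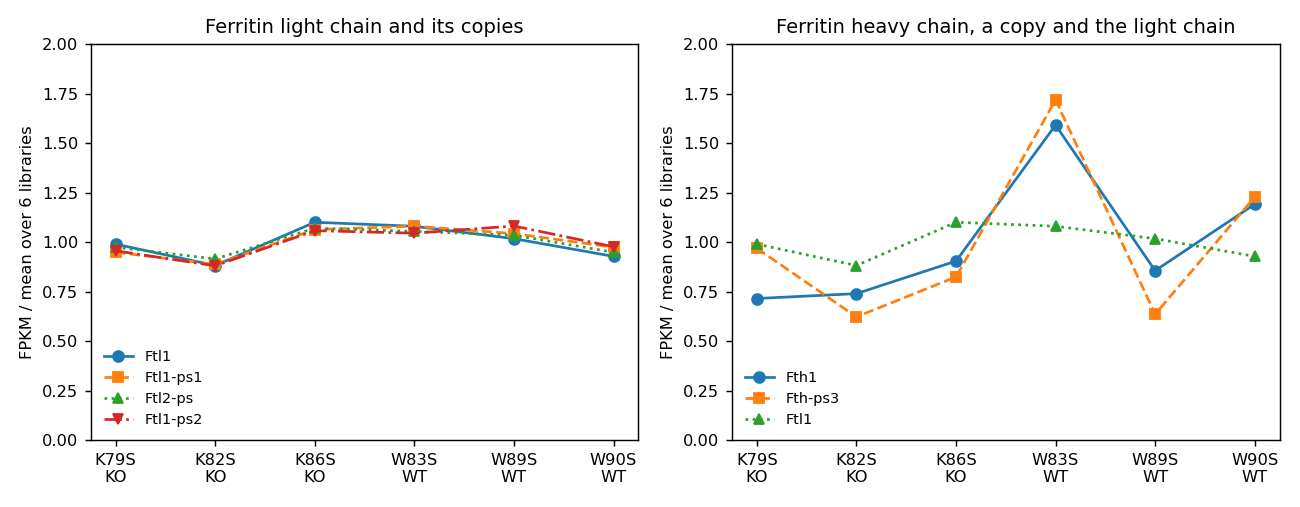
FPKM of each gene divided by its own mean over the 6 libraries (linear y axis), for Ftl1 and its 3 copies on the left and for Fth1, Fth-ps3 and Ftl1 on the right. The 4 light chain rows run together within a narrow band, while Fth1 and Fth-ps3 peak in W83S at 2942 and 14.6 FPKM.

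Tfrc, the receptor for transferrin, had a lower mean in KO that did not pass the test. It stood at 5.61 FPKM in K79S, 8.53 in K82S and 6.79 in K86S, and at 9.73 in W83S, 7.56 in W89S and 14.7 in W90S. K82S lay above W89S, so the groups overlapped. Means were 6.98 ± 1.47 FPKM for the KO mice and 10.7 ± 3.67 for the WT mice (SD, n = 3), a ratio of 0.654, and the log2 fold change was -0.52 with a 95% interval of -1.13 to 0.09 (adjusted p = 0.418 from limma, exact permutation test p = 0.2). Without W90S it was -0.28, and without K82S -0.66, which was not called. Dividing cells carry much of this receptor, and the 9 placed markers of proliferating crypts, led by Pcna, Ccnb2 and Birc5, summed to 28.1 FPKM in K79S, 61.2 in K82S and 32.3 in K86S, and to 49.95 in W83S, 62.8 in W89S and 71.0 in W90S. K79S was lowest and W90S highest in both Tfrc and this sum. The libraries between them differed in order, since W83S exceeded K82S and W89S in Tfrc but lay below both in the sum. Among single markers, K86S rather than K79S was lowest in Mcm2, Top2a, Cdk1, Ccnb2 and Birc5. None of the 9 was called with all libraries, and without K82S limma called 4 of them lower in KO, Mki67, Mcm5, Rrm2 and Ccnb2. The part of dividing cells, and that of the 4 placed hemoglobin genes, led by Hba-a2, Hba-a1 and Hbb-bs (21.1 FPKM in K79S and 95.6 FPKM in W90S, 52.2 to 64.1 FPKM in the others), was not tested. Tfrc lies on chromosome 16 from 32608920 to 32632794 (ENSMUSG00000022797.15), plus strand.

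**Figure D4:**
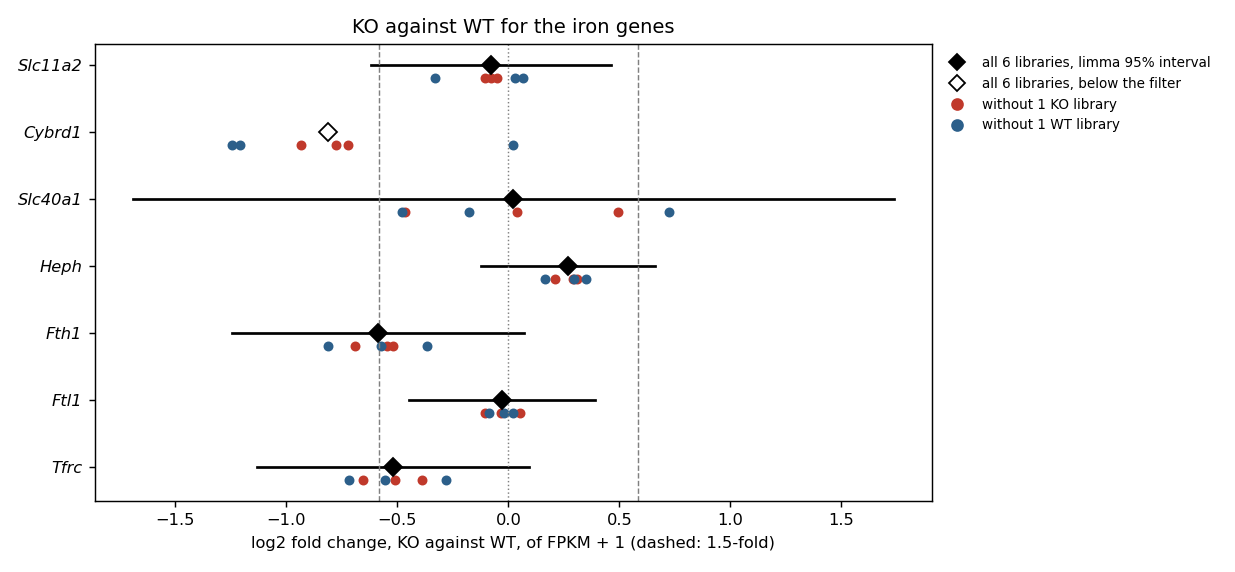
Log2 fold change of FPKM + 1, KO against WT, for the 7 iron genes, with limma's 95% interval as a line (open symbol for Cybrd1, which stayed below the filter) and the values without 1 KO (red) or 1 WT library (blue) under it. Every interval includes 0, that of Slc40a1 reaches from -1.69 to 1.74, and Heph, Fth1 and Tfrc keep their side of 0 whichever library is left out.

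Genes with the most similar course over the 6 libraries, among those with a mean of at least 10 FPKM, are given as a description, since in so large a table some gene will follow any 6 values closely. Cbr3 (r = 0.998) and Ctse (r = 0.995), both at 2.22 FPKM or less outside W83S, were most like Cybrd1. They reached the mean of 10 FPKM only through W83S (59.8 and 123 FPKM), so these r rest on 1 library. Car9 (r = 0.990) and Gsta4 (r = 0.984) were most like Fth1. Both were highest in W83S, as Fth1 was, at 31.0 and 408 FPKM against 10.1 to 18.3 and 31.3 to 117 FPKM elsewhere. Gm15590 (r = 0.962) stood second for Ftl1. Banf1 (r = 0.968) and Etfb (r = 0.968) were most like Tfrc, and Cd47 (r = 0.973) and Igtp (r = 0.973) like Heph. Sec61a1 (r = 0.965) and Prdx6 (r = 0.957) were most like Slc11a2, and Psmd2 (r = 0.963) and Oxct1 (r = 0.951) like Slc40a1.

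Around these genes, 79 others of iron handling and its control were listed, of which 58 were placed and tested. None was called, and 5 had an unadjusted p under 0.05 in limma, namely Pfkfb3, Glrx5, Blvrb, Urod and Vegfa, beside 1638 of all 13089 rows. The KO range was wholly above the WT range in 3 (5.17%) and below in 7 (12.1%), beside 5.90% and 11.3% of all rows. The 3 were Vegfa, Cdc14a and Fbxl5 (Fbxl5, Glrx5, Blvrb and Urod are named because their values were seen). The 58 had a median log2 fold change of -0.10, against -0.06 over all rows. Without K82S, 9.28% of all rows were called, with 0 of the 6 tested iron genes and 1 of 57 listed genes, Pfkfb3, a glycolytic enzyme that responds to hypoxia (log2 fold change -0.77, adjusted p = 0.0383 from limma).

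**Figure D5:**
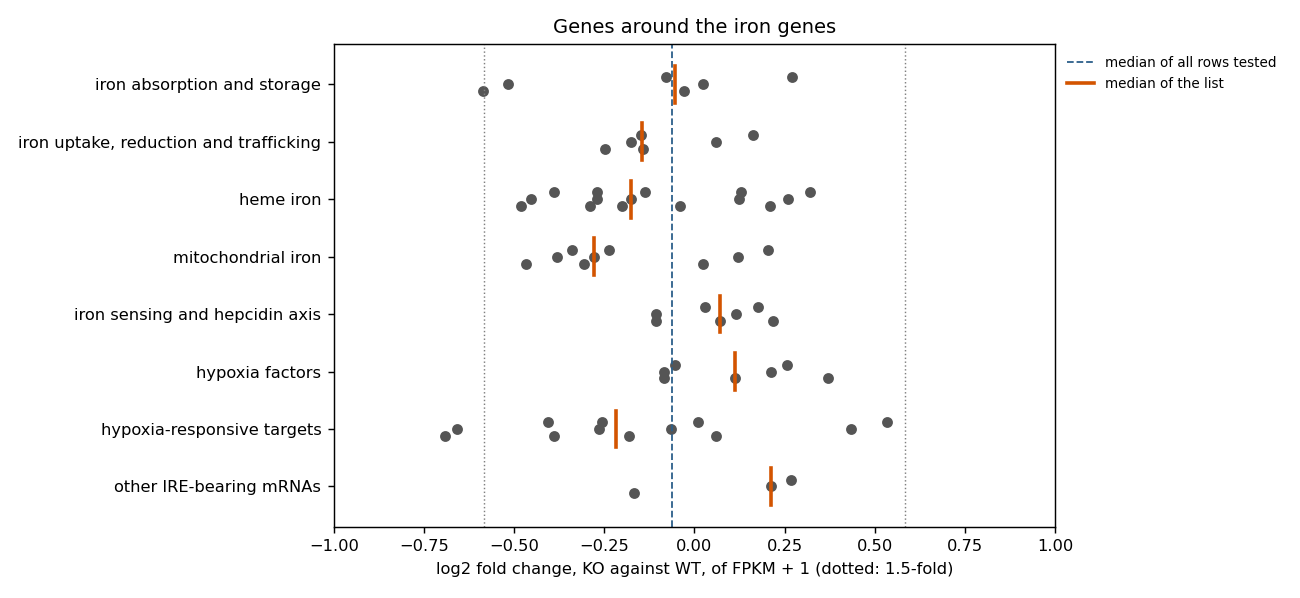
Log2 fold change of FPKM + 1, KO against WT, of every tested gene (grey points) in the 7 iron genes and in the lists around them, with the list's median in orange and the median of all rows (-0.06) as a dashed line. Each list reaches to both sides of 0, and the medians lie between -0.28 for mitochondrial iron and 0.21 for the other IRE-bearing mRNAs.

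Among genes of iron uptake and trafficking, 6 of 15 were tested and 0 called. Pcbp1 and Pcbp2, chaperones that carry iron to ferritin, averaged 127 ± 5.98 and 22.7 ± 1.62 FPKM for the KO mice and 140.2 ± 11.9 and 25.3 ± 3.36 for the WT mice (SD, n = 3). Slc39a14, a transporter of iron, zinc and manganese, was low in K82S (6.78 FPKM) and W89S (6.42 FPKM) and reached 11.0 to 11.6 FPKM in the others. For heme iron, 15 of 17 genes were tested and 0 called. Slc46a1, the proton-coupled folate transporter that also carries heme, stood at 58.8 FPKM in K79S, 25.4 in K82S and 87.6 in K86S, and at 76.2 in W83S, 17.2 in W89S and 57.1 in W90S. Both transporters were thus lowest in K82S and W89S, 1 library of each genotype, which were also lowest in the proximal markers Fabp1 and Rbp2. Alad, an enzyme of heme synthesis, averaged 22.5 ± 5.57 FPKM for the KO mice and 27.6 ± 5.73 for the WT mice, and Abcg2, an exporter of porphyrins, 26.8 ± 22.2 and 17.9 ± 5.87 FPKM (SD, n = 3).

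In the list of mitochondrial iron, 9 of 10 genes were tested and 0 called. The importers Slc25a37 and Slc25a28 averaged 22.2 ± 11.5 and 14.9 ± 3.57 FPKM for the KO mice and 18.0 ± 4.54 and 17.5 ± 2.43 for the WT mice (SD, n = 3). Iscu, the scaffold of iron-sulfur clusters, stood at 13.3 FPKM in K79S, 13.2 in K82S and 17.4 in K86S, and at 19.1 in W83S, 18.0 in W89S and 18.8 in W90S, with the KO libraries below the WT libraries (log2 fold change -0.34, adjusted p = 0.397 from limma).

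Sensing of iron was represented by 7 tested genes of 12, with 0 called. Aco1, which is iron regulatory protein when it lacks its cluster, averaged 61.6 ± 17.2 FPKM for the KO mice and 55.4 ± 4.35 for the WT mice (SD, n = 3), and Smad4 and Bmpr1a of the BMP pathway had log2 fold changes of 0.22 and -0.11. Hamp and Hamp2, the genes of hepcidin, were not analysed here. Of the hypoxia factors 7 of 8 were tested and 0 called. Epas1 (HIF-2α), which activates Slc11a2, Cybrd1 and Slc40a1 in the duodenum, stood at 7.59 FPKM in K79S, 8.94 in K82S and 11.7 in K86S, and at 10.5 in W83S, 9.18 in W89S and 4.99 in W90S, overlapping groups. The prolyl hydroxylases Egln1, Egln2 and Egln3 had log2 fold changes of -0.08, -0.08 and 0.37. Of the other mRNAs with an IRE 3 of 5 were tested and 0 called, and Cdc14a had a log2 fold change of 0.27.

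Of the hypoxia-responsive targets 12 of 13 were tested and 0 called, with 4 log2 fold changes above 0 and 8 below. Vegfa, a growth factor of vessels, stood at 23.2 FPKM in K79S, 18.0 in K82S and 18.9 in K86S, and at 14.3 in W83S, 12.5 in W89S and 13.6 in W90S, with KO above WT (log2 fold change 0.53, adjusted p = 0.393 from limma). Ldha, lactate dehydrogenase, had 327, 382 and 376 FPKM in the KO libraries and 443, 459.6 and 535 FPKM in the WT libraries in the same order, with KO below WT (log2 fold change -0.41, adjusted p = 0.395 from limma). Pgk1, another glycolytic enzyme, averaged 74.4 ± 19.6 FPKM for the KO mice and 95.8 ± 5.45 for the WT mice (SD, n = 3).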

How the data were processed

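Mucosal RNA of 3 KO and 3 WT mice was sequenced as single-end reads. The authors used trim-galore for trimming, HISAT2 for mapping to mm10 and StringTie for quantification, and deposited FPKM, 1 value per gene and library. Versions, annotation and strand handling are not given in the sources used here. FPKM allows no count model, so limma took the place of the count-based test of the study. 0 columns could not be mapped to a sample.

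Identifiers and rows were ranked by K79S and W83S, paired with fixed offsets and named from GENCODE M21, which placed 12402 identifiers, 12397 of them with a symbol; 10298 could not be placed. log2(FPKM + 1) of the 13089 rows at 1 FPKM or more in at least 2 libraries was analysed by limma 3.58.1 under R 4.3.3 (mean-variance trend, no covariate, Benjamini-Hochberg adjustment), after a test on simulated data. Figures and exact permutation tests used Python 3.11.15, scipy 1.17.1 and matplotlib 3.10.9.

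The 7 genes, 7 pathway lists and 10 marker lists were chosen with earlier results of these data known. Named beside the 7 genes were the 3 most abundant genes of each list, list genes past the threshold, Enpp7, ferritin copies and the 2 genes most like each member (1 gene is not reported here); of the smooth muscle and plasma and B cell lists sums were computed only as a check, and without K82S 1 smooth muscle marker, Smtn, was called. Alternatives were other pseudocounts, filters, scalings, weights and left-out libraries.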

Additional observations from a re-analysis of the deposited data

How the results depend on the processing

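With 3 mice per genotype, FPKM in place of read counts and names restored by rank, no small change of an iron gene could be shown. Each log2 fold change was recomputed under 16 alternatives, 112 values for the 7 genes, of which 0 passed the threshold and 18 had the other direction. Heph, Fth1 and Tfrc kept their direction in all 16, with adjusted p from limma of 0.360 to 0.760, 0.201 to 0.760 and 0.141 to 0.764. Setting libraries to the same FPKM sum moved the median of all rows from -0.06 to 0.08. Relative to that median Heph was at 0.33 before and 0.37 after, Fth1 at -0.53 and -0.48, and Tfrc at -0.46 and -0.44. That scaling gave 0.088 for Slc11a2 and 0.16 for Ftl1, median-of-ratios scaling 0.00027 and 0.058, and quantile normalization 0.18 for Ftl1. Array weights gave -0.26 for Slc40a1 and 0.031 for Ftl1. With K82S and W83S both left out, Slc11a2 was at 0.031, Ftl1 at 0.10 and Cybrd1 at 0.05. Without 1 library at a time the values ran from -0.33 to 0.066 for Slc11a2, -1.24 to 0.02 for Cybrd1, -0.48 to 0.72 for Slc40a1, 0.16 to 0.35 for Heph, -0.81 to -0.37 for Fth1, -0.11 to 0.052 for Ftl1 and -0.72 to -0.28 for Tfrc. The count of all rows called was 1, but 0 with a pseudocount of 0.1 or 0.01, 2 with array weights, 1111 without K82S and W83S, and 0 to 1184 without 1 library, the highest without K82S. The cause was not tested. No paired analysis was possible because the labels give no numbers that pair the mice. The study describes its KO and WT samples as matched, and the fits leave this out.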
